A study of Homo sapiens with 10 samples.

Results

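The zinc finger genes of chromosome 19 were described by the methylated regions called over them in HEK293T cells. The group was defined as the protein-coding genes of chromosome 19 whose symbol is ZNF followed by a number, apart from ZNF331, which was left out by the rule; ZNF597, the other gene the rule leaves out, lies on another chromosome. This gave 239 genes of the 19974 protein-coding genes on chromosomes 1 to 22 and X, 83 of them on the short arm (19p) and 156 on the long arm (19q). The rule uses symbols and positions alone and no measured value. MeDIP-seq, the sequencing of immunoprecipitated methylated DNA, was applied to HEK293T, a human embryonic kidney line. An antibody to methylated cytosine pulls down sonicated fragments, and a peak is a stretch where these pile up. The 5 conditions were EV, KD and WT, plus a knockout labelled K non-rep KO and another labelled K rep KO. The design text gives KCNQ1OT1_K as the target of the knockdown, and the list named K-KD was taken as the KD sample. KCNQ1OT1 is a long non-coding RNA of an imprinted domain. Each condition had 1 immunoprecipitated and 1 input library and gave 1 peak list. All were made in the same cell line, and the meaning of EV, K, rep and non-rep, and whether a knockout line is 1 clone, are not stated. Which control belongs to which perturbation is not stated either; K-KD was set against EV and the knockouts against WT, in the order of the design text.

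Most of these genes encode C2H2 zinc finger proteins with a KRAB domain, which bind DNA, often within transposable elements, and recruit the corepressor TRIM28 and the histone H3K9 methyltransferase SETDB1. The genes arose by tandem duplication and lie in clusters. Their final exons, which encode the arrays of zinc fingers, are known in several human cell types to carry H3K9me3, with ATRX and ZNF274 bound there. Some promoters of the family gain DNA methylation in tumours.

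With 1 list a condition there is no spread between replicates and no test across conditions, and no p-value is given. Where 5 values follow each other without names, they stand for EV, K-KD, WT, K non-rep KO, K rep KO in this order. Intervals are at 95%, exact for ratios and Wilson for shares. They cover counting error only and are too narrow, because neighbouring peaks are not independent. Depth in reads is unknown from peak lists, and the number of peaks called moves with it. On chromosomes 1 to 22 and X the lists held 87815 peaks for EV, 53919 for K-KD, 30732 for WT, 53396 for K non-rep KO and 59098 for K rep KO. The WT list was the shortest, and its median peak of 748 bp was wider than the 505 to 522 bp of the others.

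Within the gene bodies plus 2 kb on both sides, the zinc finger genes held 373 peaks for EV, 214 for K-KD, 145 for WT, 242 for K non-rep KO and 228 for K rep KO, with each peak counted once. WT was lowest and EV highest, as in the whole lists. These peaks made up 5.15% to 6.32% of the chromosome 19 peaks of each list. Fold enrichment is the authors' value at a peak's summit, relative to the background of the peak caller. Its median over these peaks was 4.52 in EV, where peaks of other chromosome 19 genes had 4.33, and 4.16 in WT, where the others had 4.25.

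Peaks were sparse over the zinc finger genes for this chromosome. Per Mb of gene region there were 48.7 peaks in EV, against 154 over the other 1212 protein-coding genes of chromosome 19 and 40.7 over all protein-coding genes. In WT the densities were 18.9, 44.0 and 10.8 per Mb, and in K rep KO 29.8, 104 and 25.4. The 237 ZNF-number genes of other chromosomes had 50.8 per Mb in EV, 15.8 in WT and 34.3 in K rep KO. In each list the density was thus below that of the rest of chromosome 19 and above that of the genome's protein-coding genes. Peaks that also touched a zinc finger gene region were left out of the other chromosome 19 numbers. The shared stretches stayed in their length, so those densities are understated where regions overlap.

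A peak was present over 65.3% of the zinc finger genes in EV (59.0% to 71.0%), 50.6% in K-KD, 40.2% in WT (34.2% to 46.5%), 49.8% for K non-rep KO and 49.0% for K rep KO. The shares over all protein-coding genes were 68.3%, 55.5%, 36.7%, 55.2% and 56.6%. WT was the only list in which the zinc finger share lay above that of all genes, and there the interval included 36.7%. The share over other chromosome 19 genes was higher in every list, from 51.4% in WT to 81.4% in EV. The regions of 51 of the 239 genes overlapped that of a neighbouring member, and a peak there was credited to both genes. In all, 62 zinc finger genes held a peak in every list, or 25.9%, beside 28.4% of all protein-coding genes. No peak was found in any list for 58 genes, or 24.3%, beside 21.9%. Among other chromosome 19 genes 42.2% held a peak in every list and 11.4% in none. The 58 genes had a median length of 20.9 kb, and the 181 with a peak 23.8 kb. The longest gene without a peak was ZNF676, at 81.2 kb.

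**Figure D1:**
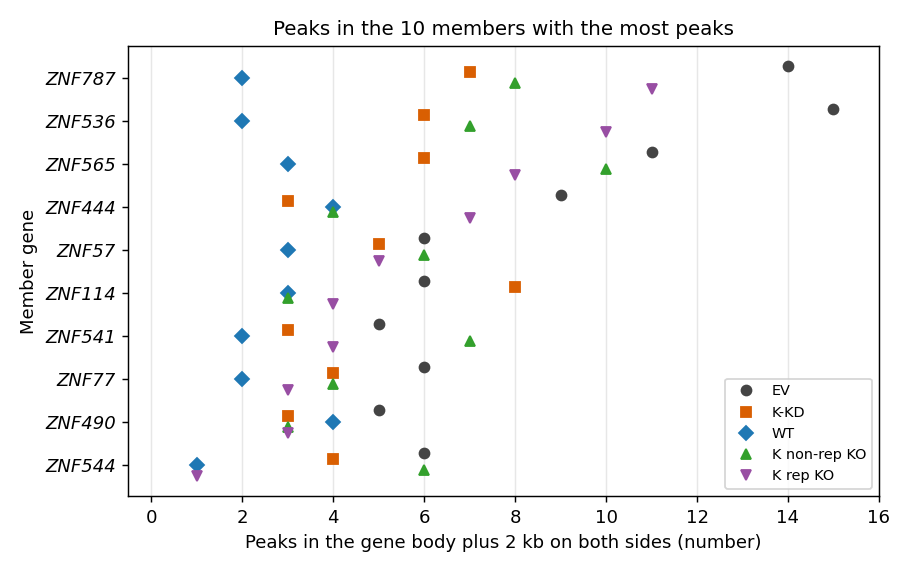
Peaks in each list (x axis, number in the gene body plus 2 kb) for the 10 zinc finger genes with the most peaks over the 5 lists (y axis); each symbol is 1 list. ZNF787, ZNF536 and ZNF565 held 6 to 15 peaks in every list except WT, where they held 2 or 3. ZNF653, ZNF791 and ZNF567, not plotted, had the same total of 18 as ZNF490 and ZNF544.

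The number of peaks varied between genes. The median zinc finger gene held 1 peak in EV and 0 in WT, and the 10 genes with the most peaks carried 17.3% to 23.6% of the gene-peak pairs of a list. More than 5 peaks in EV were held by 12 of the 239 zinc finger genes, by 288 of the 1212 other chromosome 19 genes and by 2932 of the 19974 protein-coding genes. ZNF787 (chromosome 19, 56087366 to 56121295) led with 14 peaks for EV, 7 for K-KD, 2 for WT, 8 for K non-rep KO and 11 for K rep KO. ZNF536 (30225592 to 30713586), a repressor of neuronal differentiation genes, held 15, 6, 2, 7 and 10 in the same order. ZNF536 spans 488 kb, so its many peaks come with a low density. WT was lowest and EV highest for both genes. ZNF565 (36182060 to 36245928) held 11 peaks for EV, 6 for K-KD, 3 for WT, 10 for K non-rep KO and 8 for K rep KO. These include the 4, 1, 1, 3 and 2 peaks of ZNF146, which lies inside ZNF565. ZNF444, a SCAN-domain transcription factor, held 9, 3, 4, 4 and 7.

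Others of the 10 differed little between lists or had another order. ZNF114 held 6 peaks for EV, 8 for K-KD, 3 for WT, 3 for K non-rep KO and 4 for K rep KO, and K-KD was its highest list. ZNF541, a germline gene, held 5, 3, 2, 7 and 4, with K non-rep KO highest. ZNF544 held 6, 4, 1, 6 and 1, and the knockouts stood at opposite ends. ZNF57 held between 3 and 6 peaks, ZNF77 between 2 and 6, and ZNF490 between 3 and 5. The totals of ZNF490 and ZNF544 over the lists were 18, and ZNF653, ZNF791 and ZNF567 had this total too.

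Of the 15 genes listed as known from other work, ZNF787, described above, held the most peaks of all zinc finger genes, and the other 14 held at most 4 in a list. ZNF93, which represses LINE-1 elements, ZNF43, ZNF208 and ZNF229 held 0 peaks in every list. ZNF91, which represses SVA elements, held 1 peak in K rep KO and 0 elsewhere, over 90.5 kb. ZNF274, the protein that guides SETDB1 to zinc finger genes, held 2 peaks for EV, 3 for K-KD, 0 for WT, 2 for K non-rep KO and 3 for K rep KO. ZNF8 held 4, 4, 0, 3 and 3, so both it and ZNF274 were empty in WT alone. ZNF382, a KRAB gene silenced by methylation in some tumours, held 3, 1, 2, 1 and 1. ZNF154 held 2, 1, 1, 1 and 3, and ZNF132 1, 0, 1, 2 and 1. ZNF568 held 2, 0, 1, 2 and 1, ZNF808 2, 1, 1, 0 and 1, ZNF649 2, 1, 0, 0 and 1, and ZNF671 1, 0, 0, 1 and 0. Differences of 1 or 2 peaks at such numbers lie within counting error.

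The genes fell into 20 runs when neighbours at most 500 kb apart were joined. The 10 runs of at least 5 genes held 227 of the 239 genes, and 8 genes stood alone. An arm's density averages those of its runs, so runs spread more widely than the arms by construction. The arms had 44.8 peaks per Mb on 19p and 51.1 on 19q in EV, and 20.7 and 17.9 in WT.

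**Figure D2:**
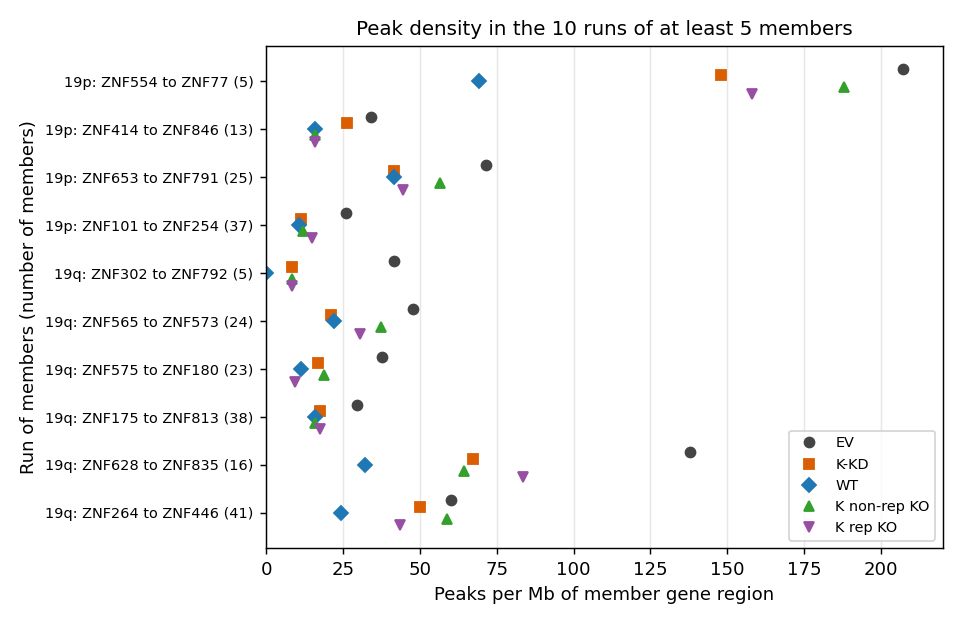
Peaks per Mb of gene region (x axis) in the 10 runs of at least 5 zinc finger genes (y axis, with arm, first and last gene and number of genes), 1 symbol per list. The run from ZNF554 to ZNF77 was densest in every list, from 69.1 per Mb in WT to 207 in EV.

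On 19p the run nearest the telomere, ZNF554 to ZNF77 (2819868 to 2944971), had 5 genes and 21 peaks for EV, 15 for K-KD, 7 for WT, 19 for K non-rep KO and 16 for K rep KO. It had the highest density of the 10 runs in each list. The run of 37 genes from ZNF101 to ZNF254 (19668153 to 24129968), next to the centromere, was among the sparsest. It held 43 peaks for EV, 19 for K-KD, 18 for WT, 20 for K non-rep KO and 25 for K rep KO over 1.66 Mb of gene region, or 25.8 per Mb in EV. ZNF43, ZNF93 and ZNF208 lie in this run, and 15 of its 37 genes held no peak in any list. Between them, ZNF653 to ZNF791 (11483429 to 12633834) had 25 genes with 48, 28, 28, 38 and 30 peaks. In that run WT, K-KD and K rep KO lay close together, and 13 of the 25 genes held a peak in every list. ZNF414 to ZNF846 had 13 genes with 13, 10, 6, 6 and 6 peaks.

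On 19q the densest of the larger runs was ZNF628 to ZNF835 (55476617 to 56671757), where ZNF787 and ZNF444 lie, with 43 peaks for EV, 21 for K-KD, 10 for WT, 20 for K non-rep KO and 26 for K rep KO. ZNF264 to ZNF446 (57191500 to 58489533), near the telomere and with 41 genes the largest run, held 47, 39, 19, 46 and 34. Here K-KD and K non-rep KO came close to EV. ZNF565 to ZNF573 (36182060 to 37779586) had 24 genes with 50, 22, 23, 39 and 32 peaks. ZNF575 to ZNF180 had 23 genes with 20, 9, 6, 10 and 5, and ZNF175 to ZNF813 had 38 genes with 37, 22, 20, 20 and 22. In this last run EV was high and the other 4 lists differed by at most 2 peaks. ZNF302 to ZNF792 had 5 genes with 5, 1, 0, 1 and 1.

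Other protein-coding genes inside the same spans were also measured. Peaks that also touched a zinc finger gene region were left out of their numbers. The shared stretches stayed in their length, so their densities are understated where regions overlap. In the span of ZNF653 to ZNF791 the 4 other genes had 234 peaks per Mb in EV, against 71.4 for the zinc finger genes. In the span of ZNF575 to ZNF180 the 10 others had 89.6 against 37.7 in EV. In that of ZNF264 to ZNF446 the 15 others had 83.8 against 60.2 in EV and 58.3 against 43.5 in K rep KO. There the others were lower in K-KD (47.4 against 49.9), WT (14.6 against 24.3) and K non-rep KO (51 against 58.9). The order was reversed for ZNF628 to ZNF835, with 68.2 for 26 other genes against 138 in EV. How far the value of the others is understated there was not measured. For ZNF175 to ZNF813 the values were 26.4 for 16 others and 29.4 in EV, and 18.5 and 15.9 in K non-rep KO. The lower density of zinc finger genes was therefore seen against neighbours in some runs and not in others. In ZNF264 to ZNF446 and in ZNF175 to ZNF813 the order changed with the list.

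Position along the gene was examined next, with strand taken from the RefSeq promoter table, which lists 209 of the 239 genes. Each gene body was cut into 3 equal segments by length, and a peak was placed by its summit where it lay inside 1 zinc finger gene body only. Summits in the 3′ segment numbered 76 of 264 in EV (28.8%, 23.7% to 34.5%), 48 of 153 in K-KD (31.4%, 24.6% to 39.1%) and 35 of 101 in WT (34.7%, 26.1% to 44.3%). The knockouts had 54 of 169 for K non-rep KO (32.0%, 25.4% to 39.3%) and 45 of 158 for K rep KO (28.5%, 22% to 36%). All 5 intervals included the 33.3% of an even spread. No excess of called peaks at the 3′ end was detectable in these lists.

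The 5′ segment held more. It took 39.4% of the summits in EV (33.7% to 45.4%), 41.8% in K-KD (34.3% to 49.8%), 39.6% in WT (30.6% to 49.4%), 36.1% for K non-rep KO (29.2% to 43.6%) and 43.7% for K rep KO (36.2% to 51.5%). The EV, K rep KO and K-KD intervals lay above 33.3%, and those of WT and K non-rep KO included it. Other chromosome 19 genes leaned away from the 5′ segment, with 27% to 29.9% of summits there and 33.6% to 38.1% in the 3′ segment. All protein-coding genes had 36.9% in the 5′ segment in WT and 32.4% to 33.8% in the other lists. In the 3′ segment they had from 29.6% in WT to 35.4% in EV. ZNF-number genes of other chromosomes had 35.0% to 40.7% in the 5′ segment. On 19p the 5′ share ran from 30.2% in WT to 45.8% in K-KD, and on 19q from 36.0% in K non-rep KO to 46.6% in WT, so the arms had no common order.

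**Figure D3:**
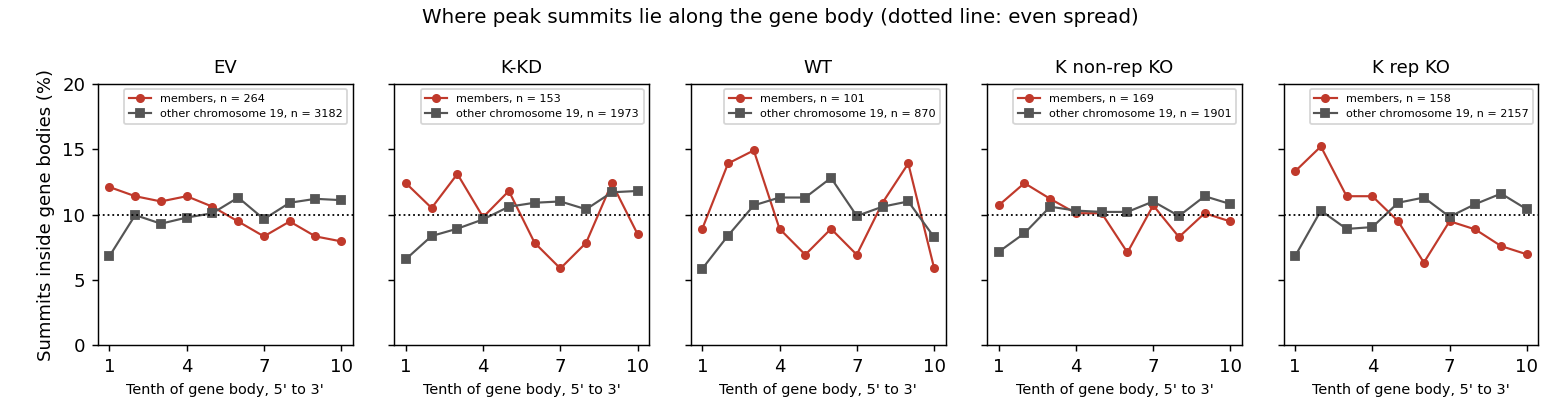
Share of peak summits (y axis, %) in each of 10 equal bins of the gene body from 5′ to 3′ (x axis), 1 panel per list, for zinc finger genes (circles) and other chromosome 19 genes (squares); the dotted line is an even spread. Zinc finger summits lean to the 5′ side in EV and K rep KO, while the other genes have their lowest share in the bin nearest the 5′ end in every panel.

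The final 5 kb of the gene body, where the exon of the zinc finger array usually lies, was counted separately. Exon positions were not used here. Summits there came to 44.2 per Mb for EV, 33.7 for K-KD, 18.3 for WT, 26.0 for K non-rep KO and 26.9 for K rep KO. Over whole bodies of the same genes the values were 42.8, 24.8, 16.4, 27.4 and 25.6 per Mb. The first 5 kb had 66.4 per Mb for EV, 36.6 for K-KD, 15.4 for WT, 30.8 for K non-rep KO and 42.3 for K rep KO. In other chromosome 19 genes the final 5 kb had 183 per Mb in EV against 139 in the first, the opposite order. ZNF-number genes of other chromosomes had 70.6 against 66.4 in EV, and all protein-coding genes 73.3 against 64.4. In WT the zinc finger genes too had more in the final 5 kb than in the first. A summit in the final 5 kb was found in some list for 51 zinc finger genes. ZNF317, ZNF446, ZNF556, ZNF653 and ZNF71 had one in every list and were chosen after their values were seen. Among the other genes described above, ZNF8 and ZNF77 had one in 4 lists.

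Promoters were covered in few cases. The RefSeq table gave 255 promoter windows for the 209 genes, from 250 bases before to 50 after a start site. Of these, 22 windows in 19 genes overlapped a peak in at least 1 list (8.63%, 5.77% to 12.7%), beside 11.9% of the windows of other chromosome 19 genes and 6.85% of all. By list there were 15 windows for EV, 9 for K-KD, 3 for WT, 10 for K non-rep KO and 4 for K rep KO. As shares of the windows these were 5.88% in EV, 3.53% in K-KD, 1.18% in WT, 3.92% for K non-rep KO and 1.57% for K rep KO. For other chromosome 19 genes the shares were 7.42%, 4.72%, 1.55%, 3.71% and 5.10%, and for all genes 4.39%, 2.70%, 0.705%, 2.10% and 2.62%. The zinc finger share was below that of other chromosome 19 genes in each list except K non-rep KO. The dinucleotide CG, the same on both strands, occurred in all member windows and in 98.1% of all windows. Windows with a peak held a median of 17.5 CG and those without 21, and over all genes the medians were 15 and 22.

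ZNF875 was the only gene with a promoter window that had a peak in every list. Its overlapping windows from 37317632 and 37317645 did. Its windows from 37334374 and 37334399 had a peak in EV and K-KD alone. The 5 peaks over the former each ran across both windows, from starts between 37316423 and 37317259 to ends between 37320013 and 37320075. The authors' fold enrichment of these peaks was 11.4 for EV, 4.72 for K-KD, 5.68 for WT, 5.65 for K non-rep KO and 14.9 for K rep KO. The promoter of ZNF132 overlapped a peak in every list except K-KD. The EV and WT peaks ran across all of the bases printed here. The K non-rep KO peak ended at 58440285 and the K rep KO peak began at 58440319, so each covered a different part of them. ZNF154 had a peak in EV alone, at 57708805 to 57709222 with a fold of 4.11, which covered only the edge of the bases printed here and none of their CG. ZNF274 and ZNF93 had none in any list. Below are the 250 bases before 1 start site of each of these 5 genes (RefSeq, GRCh38.p14, 5′ to 3′ on the gene's strand). Each CG is in capitals, to show that covered and bare promoters both held CG sites. For ZNF875 this site lies inside the gene span, which starts at 37312837. ZNF875 lies at chr19:37317632-37317881 (plus strand) with 19 CG, ZNF132 at chr19:58440154-58440403 (minus) with 19, ZNF154 at chr19:57709205-57709454 (minus) with 11, ZNF274 at chr19:58182811-58183060 (plus) with 14 and ZNF93 at chr19:19900696-19900945 (plus) with 8.
ZNF875: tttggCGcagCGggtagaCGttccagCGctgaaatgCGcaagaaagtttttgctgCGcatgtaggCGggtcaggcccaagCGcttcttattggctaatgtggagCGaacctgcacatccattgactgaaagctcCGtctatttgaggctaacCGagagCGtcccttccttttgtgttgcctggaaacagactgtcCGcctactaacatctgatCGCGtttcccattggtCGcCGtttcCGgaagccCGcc
ZNF132: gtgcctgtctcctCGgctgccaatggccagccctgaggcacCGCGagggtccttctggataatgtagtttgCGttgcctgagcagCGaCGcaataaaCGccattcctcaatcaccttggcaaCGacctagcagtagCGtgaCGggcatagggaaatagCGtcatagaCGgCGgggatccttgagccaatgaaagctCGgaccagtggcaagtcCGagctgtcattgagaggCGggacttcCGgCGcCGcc
ZNF154: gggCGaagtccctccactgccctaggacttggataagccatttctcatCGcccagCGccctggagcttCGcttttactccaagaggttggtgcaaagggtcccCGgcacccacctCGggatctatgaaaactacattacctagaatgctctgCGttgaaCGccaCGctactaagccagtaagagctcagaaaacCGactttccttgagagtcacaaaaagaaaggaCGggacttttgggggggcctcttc
ZNF274: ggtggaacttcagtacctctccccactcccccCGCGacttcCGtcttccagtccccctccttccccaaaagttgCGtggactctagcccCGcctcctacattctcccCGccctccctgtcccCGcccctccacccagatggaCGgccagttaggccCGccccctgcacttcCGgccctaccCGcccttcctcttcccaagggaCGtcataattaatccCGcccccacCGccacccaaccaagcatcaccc
ZNF93: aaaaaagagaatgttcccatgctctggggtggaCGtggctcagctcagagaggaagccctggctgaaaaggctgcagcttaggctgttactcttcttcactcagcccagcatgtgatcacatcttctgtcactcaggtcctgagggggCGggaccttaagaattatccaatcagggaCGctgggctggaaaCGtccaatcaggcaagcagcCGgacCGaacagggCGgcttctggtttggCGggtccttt
A peak list gives no methylation level for a single CG.

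Peaks of the 5 lists were joined into 575 distinct regions over the zinc finger genes. Of these, 66 had a peak in every list (11.5%, 9.12% to 14.3%), beside 6.77% (6.19% to 7.41%) for other chromosome 19 genes and 5.85% for all protein-coding genes. Regions seen in 1 list alone numbered 310 (53.9%), between the 49.8% of other chromosome 19 genes and the 58.1% of all protein-coding genes. Of the 310, 137 were in EV, 60 in K non-rep KO, 22 in WT, 41 in K rep KO and 50 in K-KD. Regions found in every list except WT made up 2.43%, beside 4.38% for other chromosome 19 genes and 2.93% for all protein-coding genes. A region in every list needs a peak in WT, the shortest list. The shares in every list and in every list except WT therefore follow in part from the ratios against WT given below. They are not a trait separate from those ratios.

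The 66 common regions touched 55 genes. By their midpoints, 20 gene placements were in the 5′ segment, 13 in the middle and 12 in the 3′ segment, with 10 in the 5′ flank or beyond, 6 in the 3′ flank or beyond and 8 in genes without strand. ZNF888 had the region whose lowest fold over the lists was highest (52911423 to 52912401), at 7.35 for EV, 7.69 for K-KD, 9.20 for WT, 14.3 for K non-rep KO and 11.5 for K rep KO. These values belong to separate lists and are not compared. In ZNF573 the region at 37767257 to 37769066, in the 5′ segment, had 6.82 or more in every list. ZNF665 (53186351 to 53188027) had 6.53 or more and ZNF600 (52827677 to 52829143) 5.71 or more. The region of ZNF254 at 24043994 to 24045680 stood in the sparse run beside the centromere, at 5.44 or more. ZNF701 carried the highest fold of any EV peak over these genes, 34.5, in a region at 52577638 to 52580132 with 5.28 or more elsewhere. ZNF57 (2918636 to 2920738, past its 3′ end), ZNF329, ZNF486 and ZNF114 completed the 10 genes, with 4.77 or more. Of these, the region of ZNF329 (58130345 to 58132013) lay in the 3′ segment, 4.93 kb before the gene's end. Many of these genes have near-identical relatives, and no source used here says how reads that align to several places were treated.

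**Figure D4:**
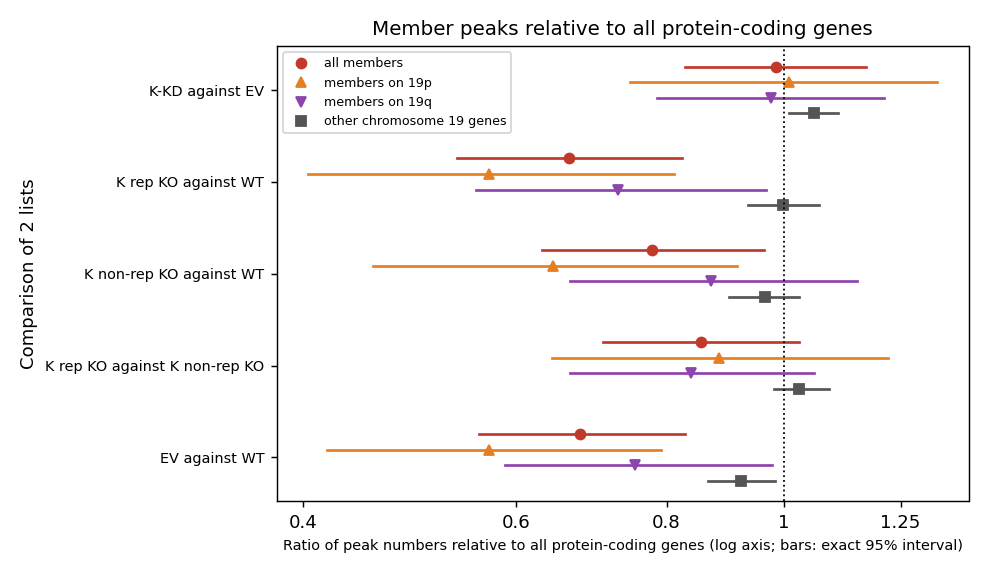
Ratio of peak numbers in 5 comparisons (y axis) relative to that of protein-coding genes as a whole (x axis, log scale), for all zinc finger genes, their 19p and 19q members and other chromosome 19 genes; bars are exact 95% intervals and the dotted line is 1. The 3 comparisons with WT lie below 1 for the zinc finger genes, and K-KD against EV lies at 0.986. Other chromosome 19 genes lie at 0.922 for EV, 0.966 for K non-rep KO and 0.999 for K rep KO against WT.

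The knockdown was compared with EV. K-KD had 214 peaks over the zinc finger genes where EV had 373, a ratio of 0.574 (0.483 to 0.681), and all protein-coding genes had a ratio of 0.583. Relative to all protein-coding genes the value was 0.986 (0.828 to 1.17), with 1.01 on 19p and 0.976 on 19q. Counting a gene as called when log2((peaks + 1)/(peaks + 1)) was 1 or more either way, 67 of the 172 genes with a peak were lower in K-KD (39.0%) and 17 higher (9.88%). By this rule 1 peak against 0 is already a call, here and in the comparisons below, so many calls lie within counting error. Over all protein-coding genes 39.9% were lower and 7.22% higher, and the median log2 difference was -0.58 in both sets. The peak number of the zinc finger genes thus differed between the full lists by about as much as that of all protein-coding genes. The plain ratio was 0.618 for other chromosome 19 genes and 0.678 for ZNF-number genes of other chromosomes, whose relative value was 1.16 (1.02 to 1.32). With lists cut to the same length the relative value was 0.745, below the interval given above. It was 0.876 at −log10 q of 5 or more and 0.9 at fold enrichment of 4 or more. The other settings listed at the end gave 0.959 to 0.998. ZNF69 had 5 peaks in EV where K-KD had 0, and ZNF567 and ZNF473, a histone pre-mRNA processing factor, held 0 in K-KD and 4 in EV. ZNF573 and ZNF575 held 1 and 5. At the other end ZNF875 held 5 and 2, and ZNF274, ZNF317, ZNF329 and ZNF446 held 3 and 2, as did ZNF554, ZNF529 and ZNF584. The intervals of the plain ratio included 1 for each of these genes. The gene ZNF700 lies inside ZNF69, so its 2 EV and 3 K non-rep KO peaks are also counted for ZNF69.

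K rep KO was compared with WT. The zinc finger genes held 228 peaks against 145, a ratio of 1.57 (1.27 to 1.95), where all protein-coding genes had 2.37 and other chromosome 19 genes 2.36. The relative value was 0.664 (0.537 to 0.824), at 0.570 (0.404 to 0.811) on 19p and 0.729 (0.556 to 0.967) on 19q. Of 129 genes with a peak, 42 were higher in K rep KO (32.6%, beside 55.5% of all genes) and 13 lower (10.1%, beside 6.51%). The median log2 difference was 0.32, against 1.00 over all genes. In the 19p run from ZNF653 to ZNF791 the numbers were 30 and 28, and in the 19q run from ZNF175 to ZNF813 22 and 20. ZNF787 held 11 and 2, ZNF536 10 and 2, ZNF565 8 and 3, ZNF555 4 and 1 and ZNF154 3 and 1. The last pair of numbers was also that of ZNF556, ZNF497, ZNF573 and ZNF875. The intervals of ZNF787 (1.2 to 51.1) and ZNF536 (1.07 to 46.9) lay above 1, but both included 2.37. Both genes were picked among the 5 highest of 35 by this same difference, which the intervals do not allow for. At the low end ZNF566 held 1 and 3, ZNF627 and ZNF850 2 and 3, ZNF490 3 and 4 and ZNF283 3 and 3. Set against EV in place of WT, the plain ratio of K rep KO was 0.611 (0.516 to 0.723) and the relative value 0.979 (0.826 to 1.16).

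K non-rep KO was set against the same WT list. The numbers were 242 and 145, a ratio of 1.67 (1.35 to 2.06) beside 2.14 for all protein-coding genes. The relative value was 0.778 (0.631 to 0.963), with 0.644 (0.457 to 0.915) on 19p and 0.870 (0.666 to 1.15) on 19q. Of 138 genes with a peak, 54 were higher (39.1%, beside 52.6% of all genes) and 20 lower (14.5%, beside 7.41%). ZNF69 held 4 peaks against 0, ZNF544 6 against 1, ZNF787 8 against 2, ZNF565 10 against 3 and ZNF536 7 against 2, as did ZNF541. ZNF850 held 1 against 3, ZNF283 2 against 3 and ZNF490 3 against 4, and ZNF444 and ZNF114 had equal numbers of 4 and 3. Intervals of the plain ratio included 1 for each of them. Against EV in place of WT the plain ratio was 0.649 (0.550 to 0.765) and the relative value 1.15 (0.970 to 1.35), so both lay on the other side of 1 from those against WT.

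EV was also compared with WT, as lists without a named perturbation of KCNQ1OT1_K. The zinc finger genes held 373 and 145 peaks, a ratio of 2.57 (2.12 to 3.14) beside 3.78 for all protein-coding genes. The relative value was 0.678 (0.560 to 0.829), with 0.570 on 19p and 0.753 on 19q. The same WT list enters this and both knockout comparisons, which are therefore not independent. Relative values against WT lay below 1 for ZNF-number genes of other chromosomes too. They were 0.846 for EV, 0.862 for K non-rep KO and 0.915 for K rep KO, and each interval included 1. Other chromosome 19 genes had 0.922 (0.866 to 0.984) for EV. Of 160 genes with a peak, 84 were higher in EV (52.5%, beside 72.8% of all genes) and 5 lower (3.12%, beside 2.53%). ZNF536 held 15 and 2 (1.74 to 67.6) and ZNF787 14 and 2 (1.61 to 63.5), and both intervals included 3.78. These genes too were picked among the 5 highest, here of 50, which the intervals do not allow for. ZNF69 held 5 and 0, and ZNF473 and ZNF574 4 and 0, as did ZNF628, ZNF865 and ZNF8. ZNF461 held 1 and 3, and ZNF283, ZNF627, ZNF329 and ZNF446 had equal numbers in the lists. As a part of all peaks of a list, the peaks over zinc finger genes were 0.472% in WT, 0.453% in K non-rep KO, 0.425% in EV, 0.397% for K-KD and 0.386% for K rep KO.

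The knockouts were compared with each other. K rep KO had 228 peaks over the zinc finger genes where K non-rep KO had 242, a ratio of 0.942 (0.783 to 1.13) beside 1.10 for all protein-coding genes and 1.14 for other chromosome 19 genes. The relative value was 0.854 (0.709 to 1.03), with 0.884 on 19p and 0.838 on 19q. Of 143 genes with a peak, 28 were higher in K rep KO (19.6%, beside 22.4%) and 31 lower (21.7%, beside 18.2%). ZNF544 held 1 and 6, ZNF566 1 and 4, and ZNF329, ZNF700 and ZNF790 1 and 3. ZNF564 held 4 and 1, ZNF154, ZNF730 and ZNF875 3 and 1, and ZNF611 4 and 2. All 10 intervals included 1. The run from ZNF264 to ZNF446 held 34 and 46 and that from ZNF575 to ZNF180 5 and 10, while ZNF628 to ZNF835 held 26 and 20.

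Overlap of peaks between lists was also counted. The share of a longer list's peaks that overlap WT follows in part from the ratio of peak numbers given above. Such shares are not a trait separate from the ratios against WT. Of the K rep KO peaks 45.2% (38.8% to 51.7%) overlapped a WT peak by at least 1 bp, beside 26.1% (24.5% to 27.7%) over other chromosome 19 genes. Of the WT peaks 69.7% (61.7% to 76.6%) and 60.2% (57.4% to 62.9%) overlapped a K rep KO peak. Of the K non-rep KO peaks 37.2% (31.3% to 43.4%) overlapped a WT peak, beside 30.2% (28.5% to 32.0%), and of the WT peaks 61.4% in both sets. Of the EV peaks 29.5% (25.1% to 34.3%) overlapped a WT peak, beside 21.1% (20.0% to 22.4%). Of the WT peaks 73.1% and 72.4% overlapped an EV peak. K-KD and EV shared 65.4% of the K-KD and 38.3% of the EV peaks, beside 63.5% and 38.7% for other chromosome 19 genes. Between the knockouts 55.3% of the K rep KO and 51.7% of the K non-rep KO peaks were shared, beside 43.8% and 49.6%.

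Genes of the silencing pathway that KRAB zinc finger proteins recruit were read from a list of 30. TRIM28, the corepressor, lies on 19q beyond the last run and held 1 peak in each list. SETDB1 held 6 peaks for EV, 6 for K-KD, 3 for WT, 2 for K non-rep KO and 4 for K rep KO. DNMT1, the maintenance DNA methyltransferase on 19p, held 18, 9, 1, 9 and 11, and UHRF1, which brings it to replicated DNA, 20, 9, 8, 13 and 18. ATRX held 5, 2, 3, 2 and 4. KDM4B, an H3K9 demethylase gene on 19p, held the most, at 59, 32, 12, 28 and 45. Of the 26 pathway genes with a peak in K-KD or EV, 12 were lower in K-KD (46.2%, beside 39.9% of all genes) and 2 higher (7.69%, beside 7.22%). Of 25 with a peak in K rep KO or WT, 12 were higher (48.0%, beside 55.5%) and 1 lower (4.00%, beside 6.51%). In K non-rep KO against WT 11 of 25 were higher (44.0%, beside 52.6%) and 0 lower (beside 7.41%). Between the knockouts 2 of 26 were higher in K rep KO (7.69%, beside 22.4%) and 3 lower (11.5%, beside 18.2%).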

How the data were processed

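Bowtie2, MACS2, deepTools and the build GRCh38 are named in the submitters' processing notes. For versions, settings and pooling, nothing is given in the sources used here. For each condition, 1 narrowPeak list was deposited. The deposited fold enrichment is a ratio at the summit, the deposited −log10 p and −log10 q belong to the same summit, and the deposited score is the −log10 q multiplied by 10 and truncated. Fold and −log10 q were used to describe, filter or cut a list, and the −log10 p and the score in no result. There was 1 further list whose name matched no sample, and it was used in no step. Peak names inside the knockout lists carry other prefixes than the lists, so these assignments rest on the list names.

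Peaks off chromosomes 1 to 22 and X (3.56% to 5.83% of a list) were left out. Gene spans came from RefSeq (GRCh38.p14), are 1-based and were extended by 2 kb, and an overlap of 1 bp counted. Relative ratios set the zinc finger ratio over that of protein-coding genes as a whole, after adding 0.5 to both zinc finger peak numbers. Intervals at 95% are exact (Clopper-Pearson) for ratios and Wilson for shares. Genes were named as the 10 with the most peaks, the 5 lowest and 5 highest of each comparison among those with at least 4 peaks in both lists together, the 10 with the strongest region in every list, and a fixed list of family members known from other work, of which ZNF10 is not a member. Ties went to the gene with more peaks and then by symbol, so at several ends, mainly those of equal numbers in both lists, genes tied with the last one named are not listed. The members and lists were chosen with earlier results of these data known. Counting and position code was tested on simulated peaks (Python 3.11.15, pandas 2.3.3, NumPy 2.4.6, SciPy 1.17.1).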

Additional observations from a re-analysis of the deposited data

Results flagged for a closer look

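The zinc finger genes held more peaks in the knockouts than in WT, while K-KD had fewer than EV, with controls assigned as above and not stated by the labels. The ratio of peak numbers was 0.574 in K-KD against EV, 1.57 in K rep KO against WT and 1.67 in K non-rep KO against WT. These point in opposite directions and were noted for that reason. Against EV the knockouts had ratios of 0.611 (0.516 to 0.723) for K rep KO and 0.649 (0.550 to 0.765) for K non-rep KO, in the same direction as K-KD, so the opposite directions hold only with WT as their control. With 1 list a condition, whether they differ was not tested. Over all protein-coding genes the ratios were 0.583 for K-KD against EV, and against WT 2.37 for K rep KO and 2.14 for K non-rep KO.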

How the results depend on the processing

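Each relative ratio was recomputed with −log10 q of 5 or more, fold enrichment of 4 or more, lists cut to the same length, gene bodies alone, 50% of the peak inside the region, and bases covered in place of peaks. Of the 30 planned values, 28 lay within the interval of the main value. With lists cut to the same length, K-KD against EV stood at 0.745 (105 peaks against 147) in place of 0.986. With −log10 q of 5 or more, K rep KO against WT stood at 0.828 (107 against 62) in place of 0.664. With EV in place of WT, an alternative added after the data were seen, K rep KO stood at 0.979 and K non-rep KO at 1.15, which reverses the direction of the latter. Of 35 alternative values of the 3′ share, 26 lay within the main interval. With −log10 q of 5 or more the K-KD share was 24.4% (10 of 41 summits). Shorter windows gave smaller shares by construction. The last 25% of the body held 22.3% of summits in EV, 24.2% in K-KD and 19.6% in K rep KO. The final 5 kb held 17.4% for EV, 22.9% for K-KD, 18.8% for WT, 16% for K non-rep KO and 17.7% for K rep KO. Other causes of these shifts were not tested. The small numbers of peaks per gene, at most 15, limit what can be said of single genes. No paired analysis was possible because each condition has 1 list and no test was run.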
